A study of Mus musculus with 12 samples.

Results

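Mouse chromosome 12 held 3593 accessible regions, of 76042 in the whole series, in RAW264.7 macrophage lines assayed by ATAC-seq. ATAC-seq cuts open chromatin with a transposase, so that peaks of sequenced fragments mark accessible DNA. The regions were chosen by merging the overlapping or touching peaks of all 12 deposited peak lists and keeping those on chromosome 12 with a peak in at least 2 lists. Merging all lists gave 100374 regions, of which 5044 lay on chromosome 12 before the 2-list rule. The chromosome itself was singled out because earlier results of these same lists had shown fewer peaks there in one of the lines, so the difference between the lines is described here without a test. On chromosome 12, 538 regions sat just inside the rule with exactly 2 lists, and 1451 sat just outside it with 1 list. Of the 538, 442 were called only in GFP libraries, 10 only in Nur77 libraries and 86 in 1 library of each line. Of the 1451, 1374 came from a GFP library and 77 from a Nur77 library.

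RAW264.7 is a mouse macrophage-like cell line. Stable lines carried either Nur77, the nuclear receptor encoded by Nr4a1, or green fluorescent protein (GFP) under doxycycline control, and every group received 1 µg/ml doxycycline for 18 h. Cells of each line got either no further treatment or 1 h of LPS (lipopolysaccharide from the bacterial cell wall) at 500 ng/ml, which made 4 groups of 3 libraries. The labels do not say whether a line is a single clone, or whether replicates were separate cultures. P-values below therefore measure only the spread between these libraries, which may be technical.

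Nur77 is an early response factor that binds DNA at the NBRE sequence and is known in macrophages for restraining inflammatory genes. LPS is sensed by Toll-like receptor 4, and the signal reaches chromatin through NF-kB, AP-1 (dimers of Fos, Jun and related proteins) and interferon-driven factors. Chromosome 12 carries genes from each of these arms, among them Fos, Batf and Jdp2 of the AP-1 family, Nfkbia, the inhibitor that holds NF-kB in the cytoplasm, and the interferon-induced Rsad2. The height of a peak follows both the number of DNA copies and the accessibility of each copy, and these cannot be told apart in these lists.

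The promoter sequences below belong to the genes on which the calls turned: Ttc9, the 1 protein-coding gene whose promoter was called in all 6 GFP and in no Nur77 library; Dio2, called in 6 GFP and 1 Nur77 library; Pfn4, called in 2 GFP and 6 Nur77 libraries; and Rsad2 and Nfkbia, near which members rose with LPS. They were picked after their values were seen. Each runs from 250 bases before to 50 bases after the start of the gene, 5′ to 3′ on the gene's strand, from RefSeq on GRCm38.p6 (mm10). Capitals mark matches to AP-1 (TGANTCA), CRE (TGACGTCA), NBRE (AAAGGTCA), NF-kB (GGANTTTCC) or PU.1 (GAGGAAGT), searched on both strands.
Ttc9 promoter, chr12:81630999-81631298, + strand: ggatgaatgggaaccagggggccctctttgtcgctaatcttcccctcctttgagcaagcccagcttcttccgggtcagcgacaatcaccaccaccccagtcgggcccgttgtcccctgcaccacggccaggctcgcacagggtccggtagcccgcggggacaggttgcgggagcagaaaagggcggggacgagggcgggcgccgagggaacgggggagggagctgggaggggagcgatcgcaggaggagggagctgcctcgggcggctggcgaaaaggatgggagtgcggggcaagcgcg
Dio2 promoter, chr12:90738989-90739288, - strand: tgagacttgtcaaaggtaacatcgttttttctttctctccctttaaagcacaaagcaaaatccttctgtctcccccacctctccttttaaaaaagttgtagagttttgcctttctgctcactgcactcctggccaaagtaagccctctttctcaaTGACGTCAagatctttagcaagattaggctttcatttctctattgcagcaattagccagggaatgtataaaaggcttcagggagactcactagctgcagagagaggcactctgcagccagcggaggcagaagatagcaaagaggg
Pfn4 promoter, chr12:4769045-4769344, + strand: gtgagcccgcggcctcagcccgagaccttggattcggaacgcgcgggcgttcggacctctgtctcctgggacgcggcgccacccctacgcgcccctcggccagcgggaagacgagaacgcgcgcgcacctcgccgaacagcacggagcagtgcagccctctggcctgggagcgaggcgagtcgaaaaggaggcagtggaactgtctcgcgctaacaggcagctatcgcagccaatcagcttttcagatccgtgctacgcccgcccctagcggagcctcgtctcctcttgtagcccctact
Rsad2 promoter, chr12:26456403-26456702, - strand: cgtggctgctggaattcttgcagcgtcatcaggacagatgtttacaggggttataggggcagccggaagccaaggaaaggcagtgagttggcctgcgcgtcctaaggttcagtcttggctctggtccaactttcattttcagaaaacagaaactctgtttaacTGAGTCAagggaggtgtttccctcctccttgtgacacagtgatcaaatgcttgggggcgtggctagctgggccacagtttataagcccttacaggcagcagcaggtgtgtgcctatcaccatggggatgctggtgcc
Nfkbia promoter, chr12:55492598-55492897, - strand: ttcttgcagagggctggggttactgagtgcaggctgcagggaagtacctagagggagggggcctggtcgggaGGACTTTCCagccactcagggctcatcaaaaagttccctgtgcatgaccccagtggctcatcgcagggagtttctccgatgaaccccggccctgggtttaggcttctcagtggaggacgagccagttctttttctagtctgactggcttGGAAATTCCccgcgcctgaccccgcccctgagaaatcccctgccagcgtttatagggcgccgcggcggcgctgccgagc

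The Nfkbia window held matches to the NF-kB letters at positions 73 and 222, the Rsad2 window 1 AP-1 match at position 164 and the Dio2 window 1 CRE match at position 156, counted from the first base printed. None of the letter patterns was found in the Ttc9 and Pfn4 windows. Of 21262 promoter windows of protein-coding genes in the genome, 6.99% held AP-1, 2.23% CRE, 1.303% NBRE, 1.28% NF-kB and 3.13% PU.1 letters. Of the 425 chromosome 12 windows that met a member, the shares were 5.41%, 4.47%, 1.18%, 1.41% and 4% in the same order. A match is a description of the letters and not a measured binding site.

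The Ttc9 promoter member (chr12:81630522-81631747) ranked at the 11.0, 17.0 and 18.2 percentile of its list in the untreated GFP libraries and at 33.6, 31.3 and 32.4 after LPS. No Nur77 library called it. The Dio2 member (chr12:90738008-90739178), at the gene of the enzyme that activates thyroid hormone, ranked at the 12.2, 32.9 and 55.9 percentile as lowest, median and highest of the GFP libraries, and at 15.8 in the 1 Nur77 library that called it. The member over the Pfn4 and Fam228b promoters (chr12:4768353-4769595) went the other way. It ranked at the 2.08 and 9.53 percentile in the 2 GFP libraries that called it, and between 77.6 and 88.8 in the 6 Nur77 libraries.

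The lists were 36184 to 81467 peaks long, with means of 61870 in GFP and 50805 in Nur77 libraries and overlapping ranges. List length moves with every count of calls below. The promoters of the macrophage genes Cd68, Lyz2, Itgam, Fcgr3 and Cebpb were called in all 12 libraries. Of the 5 marker lists of other cell types, 4 (T cell, fibroblast, epithelium, neuron) had no promoter called, and of the 2 B cell promoters 1 was never called. The line labels were checked at Nr4a1, on chromosome 15, where 1 region (chr15:101270092-101272260) was called in 0 of 6 GFP and 6 of 6 Nur77 libraries. Another there (chr15:101258990-101259376) went the other way, called in 2 GFP and 0 Nur77 libraries. The rest were called in 6 and 6 or in 5 and 6 libraries, GFP first.

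Chromosome 12 took a smaller share of the peaks in every Nur77 library than in any GFP library. The share was 5.04%, 5.13% and 5.22% in the untreated GFP libraries and 4.94%, 4.95% and 5.09% in the GFP libraries after LPS. In the Nur77 libraries it was 3.78%, 3.83% and 3.78% untreated, and 3.79%, 3.68% and 3.73% after LPS. The lines did not overlap, and the means were 5.06% in GFP and 3.76% in Nur77, a ratio of 0.744. On the 19 other chromosomes (Y left out) the same ratio lay between 0.974 and 1.11.

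Fewer members were called in the Nur77 libraries as well: 58.2% to 92.2% of them in a GFP library and 34.9% to 57.4% in a Nur77 library, with means of 74.9% and 48.4%. For regions on other chromosomes the means were 71.6% and 61.4%. Of the 3593 members, 2242 (62.4%) were called in more GFP than Nur77 libraries, 111 in fewer and 1240 in as many. No Nur77 library called 1058 members (29.4%), and no GFP library called 16 (0.445%). Elsewhere 39.1% of regions were called in more GFP libraries and 13.3% in fewer, 12.8% in no Nur77 library and 2.05% in no GFP library.

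**Figure D1:**
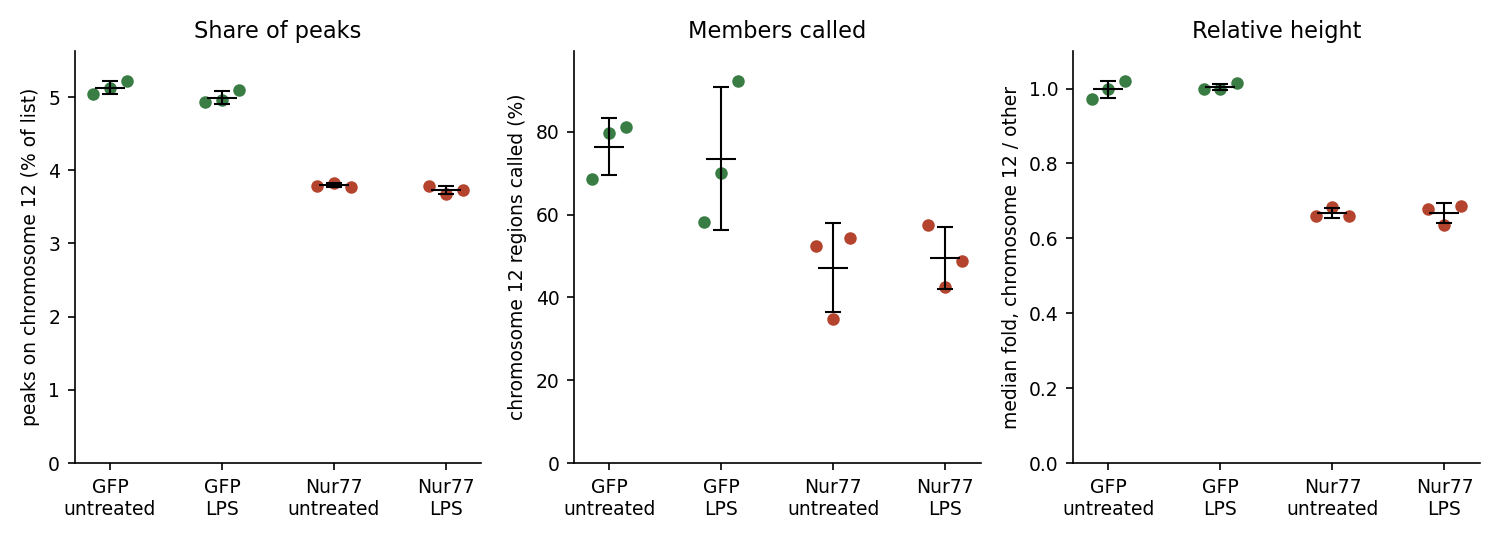
Share of each list's peaks on chromosome 12 (left, %), share of the 3593 members called (middle, %) and median fold of members over that of regions on other chromosomes (right, a ratio, regions called in all 6 GFP libraries). Points are libraries, bars the mean and SD of 3; the Nur77 libraries lie below every GFP library in each panel, between 3.68% and 3.83% in the left one.

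Peak height was compared over regions fixed by the GFP libraries. Fold is the authors' peak height over background, and the median fold of members was divided by that of regions on other chromosomes in the same library. Over regions called in all 6 GFP libraries (1679 on chromosome 12, a region not called in a library counting as below every peak), the ratio was 0.973, 1.00 and 1.02 in untreated GFP libraries and 1.00, 1.00 and 1.01 after LPS. It was 0.659, 0.684 and 0.661 in untreated Nur77 libraries and 0.679, 0.636 and 0.686 after LPS. The means were 1.00 ± 0.016 in GFP and 0.667 ± 0.019 in Nur77 libraries (SD, n = 6 each), a ratio of 0.667. On the 19 other chromosomes, under the same choice of regions, it lay between 0.934 and 1.11. These regions passed through their GFP calls alone, so the value is a description and supports nothing. Over the members called in all 12 libraries, described below, the median ratio per region was 0.731.

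By class of region, the median ratio of relative height over members called in all 12 libraries was 0.779 at promoters (282 members), 0.722 in gene bodies (395) and 0.678 between genes (377). Elsewhere it was 1.09, 1.02 and 0.983 in the same order. Relative height is a region's fold over the median fold, in the same library, of the regions on other chromosomes called in all 12 libraries.

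Single regions were then followed through ranks. The common set holds the 26378 regions called in all 12 lists, and a region's rank is its percentile among them by its strongest −log10 q in that library. It includes 1054 members (29.3%), so members lost in any library are left out of what follows. The median rank of members was 58.1, 58.6 and 59.1 in untreated GFP libraries, 61.3, 59.2 and 60.1 in GFP after LPS, 42.1, 45.1 and 42.1 in untreated Nur77 libraries, and 42.6, 42.1 and 43.2 in Nur77 after LPS. The lines did not overlap and their means differed by -16.5 points. The rank was lower on average in Nur77 for 991 of 1054 members, with a median difference of -10.6 points per region. On the other chromosomes that median lay between 0.047 and 2.90.

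**Figure D2:**
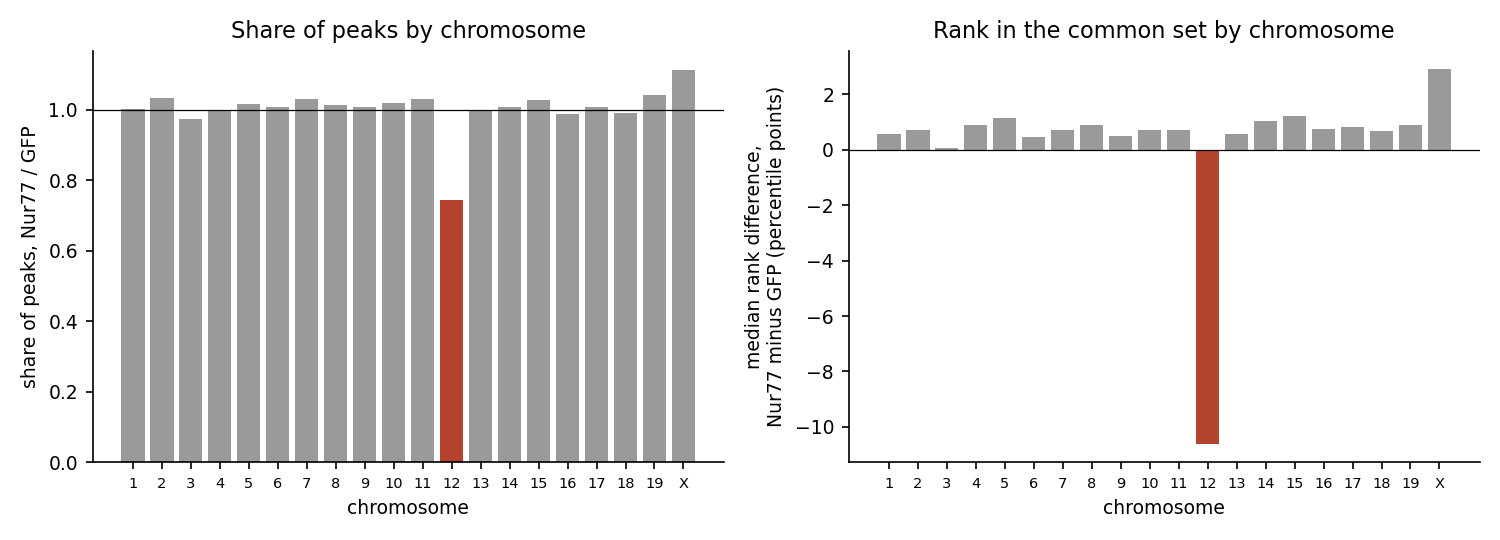
Left, share of peaks in Nur77 over GFP libraries (a ratio of means, 6 libraries each) by chromosome; right, median rank difference (Nur77 minus GFP, percentile points) over regions of the common set. Chromosome 12 (red) stands at 0.744 and -10.6, and the 19 others (grey) between 0.974 and 1.11 and between 0.047 and 2.90.

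All 6 Nur77 libraries ranked below all 6 GFP libraries at 355 members (33.7%), where 3.56% of all regions of the common set did so, and above them at 1 member, where 1.66% did. The rule for choosing the chromosome used this contrast, so nothing is read from these shares. In relative height, the median member of the common set stood at 1.24 in GFP and 0.842 in Nur77 libraries. These levels depend on the set, since the fold ratios over regions called in all 6 GFP libraries were 1.00 and 0.667. The ratio between the lines had a median of 0.731 and quartiles of 0.634 and 0.818, and it was below 1 for 1004 of 1054 members (95.3%). Elsewhere the median ratio was 1.04 and 41.0% were below 1. In 4 equal classes of mean rank, weakest first, the median ratio of members was 0.699, 0.697, 0.696 and 0.774, beside 0.960, 1.00, 1.05 and 1.11 elsewhere.

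**Figure D3:**
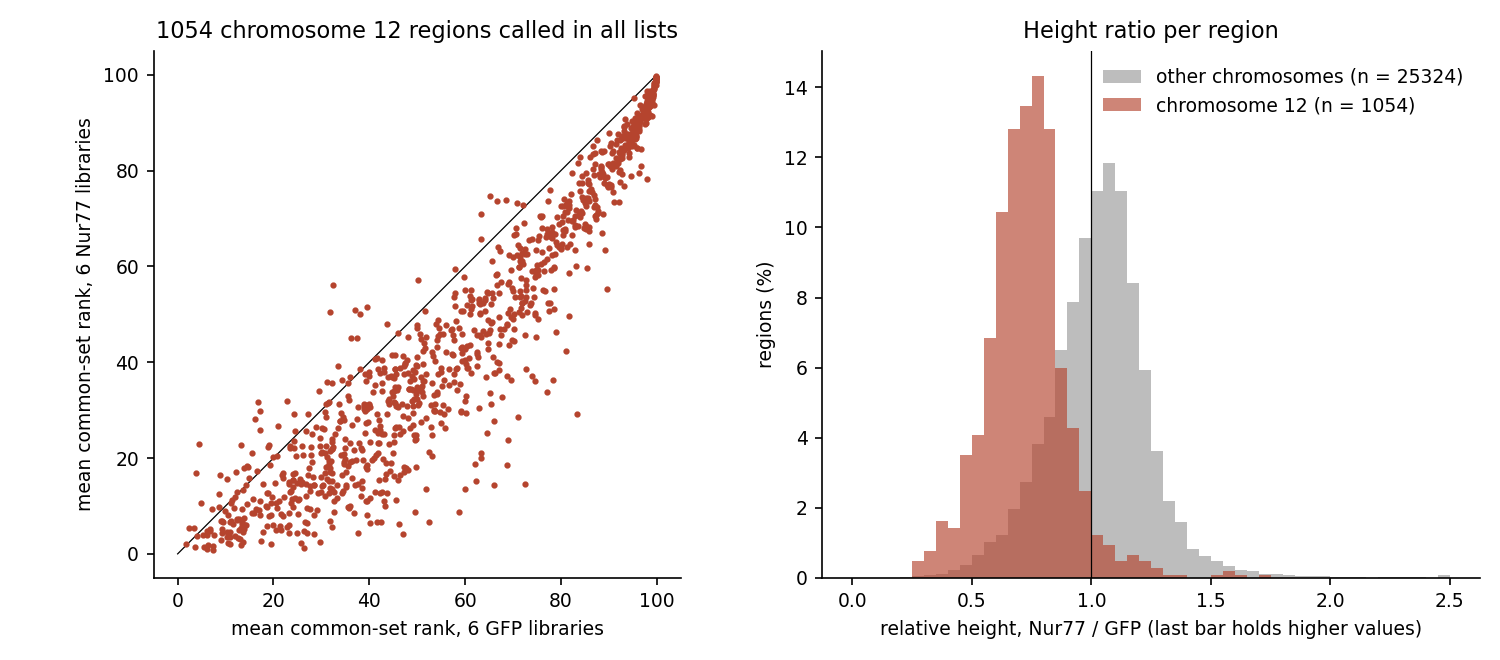
Left, mean rank of each of the 1054 members in the common set in Nur77 (y) against GFP libraries (x), with the line of equality; right, share of regions (%) by the ratio of relative height, Nur77 over GFP, on chromosome 12 (red) and elsewhere (grey). Of the members, 991 lie below the line, and the median ratio is 0.731 against 1.04.

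Along the chromosome the difference had the same sign throughout. The 5 Mb windows with at least 20 members in the common set numbered 16, and the median rank difference was negative in all 16, from -15.5 to -6.86 (median -10.8). Of 349 such windows on other chromosomes, 62 were negative, the lowest at -4.25 on chromosome 3 (80 to 85 Mb, 59 regions), and 0 reached the highest chromosome 12 window. In 22 of 22 windows with at least 20 members, a smaller share of members was called in Nur77 than in GFP libraries, with ratios from 0.521 to 0.809. The window from 20 to 25 Mb had the highest ratio and the window from 25 to 30 Mb the lowest. The window from 45 to 50 Mb, with 3 members, was the exception in sign: its 1 member of the common set, at the promoter of the RNA-binding protein gene Nova1, differed by 2.39.

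**Figure D4:**
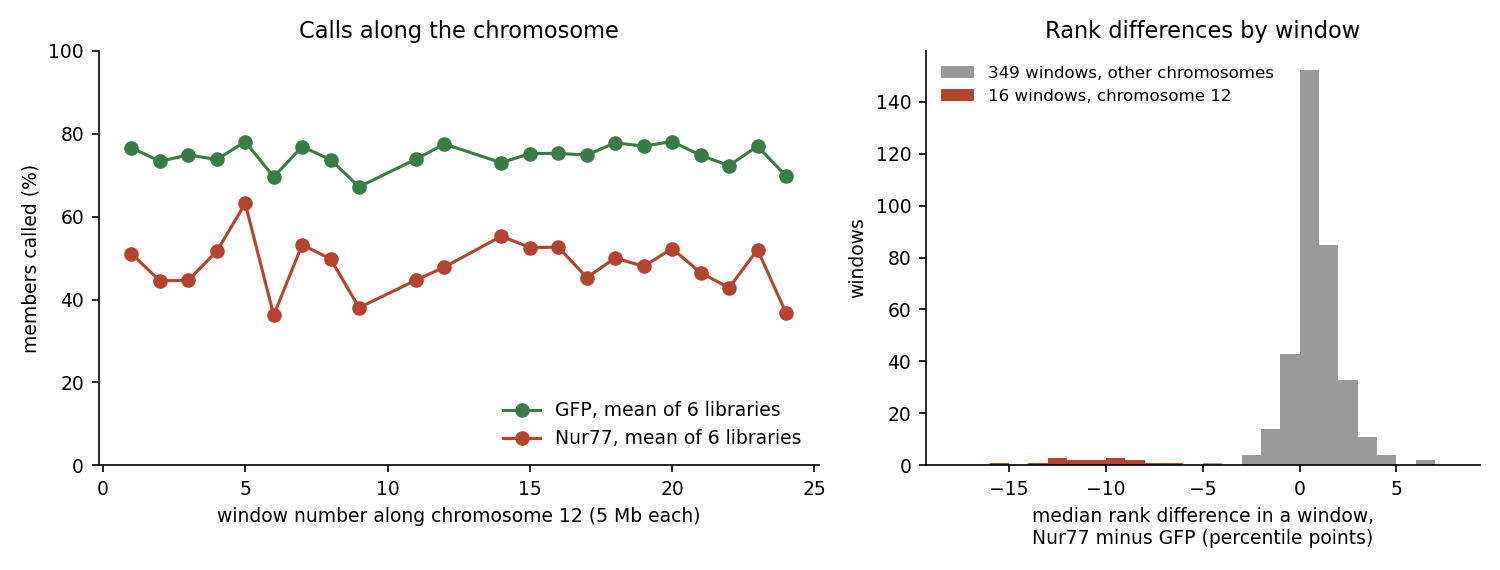
Left, share of members called (%, mean of 6 libraries per line) in 5 Mb windows with at least 20 members, by window number; right, number of windows by median rank difference, Nur77 minus GFP (percentile points). The Nur77 line is lower in 22 of 22 windows, and the 16 chromosome 12 windows lie between -15.5 and -6.86.

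Loss of the call altogether was set beside the strength of a region in the GFP lists. Of the 1679 members called in all 6 GFP libraries, 1054 were called in all 6 Nur77 libraries and 66 in none. Split into 4 equal classes of GFP percentile over all such regions, weakest first, 16.9%, 50%, 83.2% and 99.8% of members were called in all 6 Nur77 libraries, beside 40.4%, 76.9%, 95.4% and 99.9% of regions elsewhere. The 66 lost members were in the weakest classes, 57 in the first and 9 in the second. Of regions elsewhere, 264, 87, 14 and 1 were lost in the same order of classes. These regions passed and were classed through their GFP values alone, so the shares are a description and support nothing.

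The 66 members lost in all Nur77 libraries were 1.84% of the members (0.568% of all regions), and 0 showed the reverse (0.0579% of all regions). They lay in 20 of the 25 windows. Without LPS alone, 320 members were called in 3 GFP and 0 Nur77 libraries (8.91%, beside 3.4% of all regions) and 2 in the reverse (0.0557%, beside 0.308%). After LPS, 208 were lost (5.79%, beside 2.18% of all regions) and 3 gained (0.0835%, beside 0.304%). These counts depend on list length: at equal list length the 66 became 36, the 320 became 145 and the 208 became 142.

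The lost member with the highest percentile in GFP lay 13.1 kb from Pxdn, a matrix peroxidase gene (chr12:30030763-30033385). It ranked at the 39.2, 56.9 and 64.8 percentile of the untreated GFP lists and at 74.8, 75.2 and 83.8 after LPS. The next, within Myt1l, a neuronal zinc finger gene (chr12:29696284-29698514), ranked at 69.9, 63.9 and 69.0 untreated and at 61.6, 54.9 and 72.3 after LPS. Of the remaining 8 of the 10 strongest, 2 lay within a gene, Evl, an actin regulator, and Itpk1, an inositol phosphate kinase, and the others near Nampt (95.5 kb), Nt5c1b, Trib2, Tdrd9, Dtnb and Dact1.

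Among members called everywhere, the largest negative difference of rank was within Kcnk13, a potassium channel gene (chr12:99986567-99987549). It ranked at 60.1, 66.6 and 65.7 in untreated GFP libraries, 77.8, 86.1 and 78.2 in GFP after LPS, 5.68, 3.97 and 4.92 in untreated Nur77 libraries and 13.7, 34.6 and 24.2 in Nur77 after LPS. The lines did not overlap and differed by -57.9 points, with relative heights of 1.72 ± 0.427 and 0.437 ± 0.163 (SD, n = 6 each). Within both lines the LPS libraries ranked above the untreated ones, by 17.9 ± 3.26 points (SE, limma adjusted p = 0.0024).

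A member within Dnmt3a, the de novo DNA methyltransferase gene (chr12:3894138-3895510), came next. Its rank was 78.2 or more in every GFP library and 49.0 or less in every Nur77 library, a difference of -54.0 points. A further 7 of the largest lay in or near Serpina3a, Itpk1, Acot6, Plek2, Asb2, Sdc1 and Pcnx, between -51.6 and -43.3 points. Their relative height in Nur77 was 0.298 to 0.372 of that in GFP. The members were chosen for their fall between the lines, so a ratio below the 0.731 of all members follows from the choice.

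The 1 member of the common set that ranked higher in all Nur77 than in all GFP libraries lay within Tdp1, a DNA repair gene (chr12:99902137-99903373). It ranked at 2.09, 8.56 and 4.56 in untreated and 1.37, 1.31 and 8.34 in LPS-treated GFP libraries. In Nur77 it ranked at 22.0, 34.0 and 27.6 untreated and 20.6, 22.0 and 10.9 after LPS. It remained among the weaker regions of the common set in both lines.

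The strongest members were promoters: Crip1, Glrx5, Ifrd1, Rps6ka5 and the promoter shared by Isca2 and Npc2. Their ranks differed by -0.48 to -0.27 points. A region near the top has little room to move in rank, and whether this accounts for the small differences was not tested. Their relative height in Nur77 was 0.880 to 0.937 of that in GFP. In the strongest of the 4 classes of mean rank, the ratio of members had a median of 0.774 and an upper quartile of 0.828. At promoters in general (282 members of the common set) the median rank difference was -7.82 and 43.3% were lower in all Nur77 libraries. In gene bodies (395) these values were -11.3 and 26.3%, and between genes (377) -14.0 and 34.2%. Elsewhere they were 1.18 and 0.842% at promoters, 0.795 and 2.25% in gene bodies, and -0.056 and 3.84% between genes.

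Counted by gene, 363 of the 588 protein-coding genes with a promoter window met a member, and 323 of them were called in all 12 libraries. Of the 323, 316 had a lower mean rank in Nur77, 149 were lower in all 6 libraries and 0 were higher in all 6. Of all regions of the common set 3.56% were lower and 1.66% higher in all 6. Besides Ttc9 and Dio2, the Fbln5 promoter (an elastic fibre protein) was called in 5 GFP and 0 Nur77 libraries. Promoters called in fewer GFP than Nur77 libraries belonged to Pfn4, Fam228b, Jag2, Acot4, Cyria and Rbm25.

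Near the AP-1 genes, 49 members lay within 50 kb, 31 of them (63.3%) called in more GFP than Nur77 libraries and 0 in fewer, beside 62.4% of all members. Of 14 in the common set, 13 had a lower mean rank in Nur77 and 8 (57.1%) were lower in all 6 libraries, with a median difference of -16.6. Over all members of the common set these values were 33.7% and -10.6, and 3.56% of all regions were lower in all 6. The share of calls was near that of all members, and nothing particular to any list is read from its counts. Fos, the inducible AP-1 subunit, had 8 such members, all lower on average and 6 lower in all libraries. The strongest, 17.2 kb from Fos (chr12:85453899-85456673), ranked at 98.9, 99.5 and 99.6 as lowest, median and highest in GFP and at 90.6, 93.4 and 96.9 in Nur77, with no overlap. Its relative height was 6.01 ± 0.695 in GFP and 3.74 ± 0.489 in Nur77 libraries (SD, n = 6 each).

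The member over Fos itself (chr12:85470789-85481352) differed by -11.2 points. Batf, an AP-1 partner of lymphoid and myeloid cells, had its strongest member within the gene (chr12:85703348-85706396), at a mean rank of 98.5 ± 0.573 in GFP and 91.6 ± 3.50 in Nur77. The promoter member of Jdp2, a repressor of AP-1, ranked at 65.8 to 78.7 in GFP and 68.2 to 77.4 in Nur77, and these ranges overlapped. Its relative height in Nur77 was 1.09 of that in GFP, on a chromosome where 95.3% of members were below 1.

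Of the genes of NF-kB and Toll-like receptor signalling, 142 members lay within 50 kb, 82 (57.7%) called in more GFP libraries and 3 in fewer. Of the 49 in the common set, 48 had a lower mean rank in Nur77 and 19 (38.8%; all members 33.7%) were lower in all libraries (median -12.3). The member over Nfkbia (chr12:55482341-55493903) ranked between 94.3 and 99.7 in GFP and between 92.1 and 98.8 in Nur77, with overlap, and its relative height ratio was 0.900. At the promoter of Traf3, an adaptor of Toll-like receptor and TNF receptor family signalling, the difference was -11.9. The member picked for Traf3 by the list rule lay 5 kb from the gene (chr12:111159635-111161292). Its relative height was 2.93 ± 0.360 in GFP and 2.88 ± 0.438 in Nur77 libraries (SD), a ratio of 0.983. Near the interferon genes Rsad2, Cmpk2, Ifi27 and Ifi27l2a, all 6 members of the common set were lower on average and 2 (33.3%) were lower in all libraries.

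Around the transcription regulators, 27 of 30 members of the common set were lower on average and 10 (33.3%; all members 33.7%) in all libraries (median -8.73). Id2, an inhibitor of helix-loop-helix factors, had its promoter member at 97.9 ± 1.06 in GFP and 92.5 ± 1.41 in Nur77. That of Hif1a, the hypoxia factor, was at 96.6 ± 0.906 and 93.8 ± 1.02. A member 37.9 kb from Ahr, the aryl hydrocarbon receptor, was called in 6 GFP and 0 Nur77 libraries. The promoter member of Egln3, an oxygen-sensing hydroxylase, ranked at 42.2 to 68.7 in GFP and 49.0 to 64.7 in Nur77, with overlap.

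Around genes of the lysosome and of macrophage function, 49 of 49 members of the common set were lower on average and 17 (34.7%; all members 33.7%) in all libraries (median -12.2). The promoter member of Lgmn, a lysosomal protease, was at 97.6 ± 0.639 in GFP and 89.8 ± 1.79 in Nur77, with a height ratio of 0.677. That of Rhob, a small GTPase, was at 99.1 ± 0.256 and 94.3 ± 1.60. Housekeeping genes gave 44 of 46 lower on average and 20 (43.5%) in all libraries (median -9.43), and genes of other cell types 15 of 18 and 2 (11.1%; median -12.3). In median relative height ratio, these 7 lists lay between 0.636 (AP-1) and 0.792 (transcription regulators), around the 0.731 of all members.

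The LPS comparison did not enter the choice of the chromosome and was tested. For the chromosome as a whole, neither measure passed the adjusted test. Its share of peaks was 4.46% in untreated and 4.36% in LPS libraries, a difference of -0.0985 points (two-sided exact permutation test within lines, p = 0.04, adjusted over 2 tests 0.08). The difference was -0.135 in the GFP line and -0.0617 in the Nur77 line. The median rank of members differed by 0.542 points (exact permutation p = 0.435), by 1.58 in the GFP line and -0.499 in the Nur77 line, and its sign changed with the processing. The 400 arrangements allow a smallest p of 0.005.

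By limma on the ranks, 145 members (13.8%) ranked higher and 146 (13.9%) lower after LPS at an adjusted p under 0.05, beside 13.3% and 13.4% of all regions of the common set, so the shares were near the background. The median change was -0.758 for members and -0.989 for all regions. In the GFP line alone, 115 members rose (10.9%, beside 9.83% of all regions) and 89 fell (8.44%, beside 7.88%). In the Nur77 line, 84 rose (7.97%, beside 7.64% of all regions) and 66 fell (6.26%, beside 5.66%).

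The member with the smallest p lay 19.96 kb from Irf2bpl, a transcription cofactor gene (chr12:86857965-86860745). It ranked at 5.15, 0.354 and 2.59 in untreated and 70.9, 70.9 and 67.8 in LPS-treated GFP libraries, and at 1.54, 13.3 and 0.540 untreated and 83.6, 85.4 and 85.8 after LPS in Nur77. All 6 LPS libraries ranked above all 6 untreated ones. The rise was 73.5 ± 2.28 points (SE, limma adjusted p = 2.8e-08).

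The member 2.44 kb from Rsad2, which encodes the antiviral protein viperin (chr12:26438058-26440300), ranked at 32.3, 18.8 and 38.7 in untreated and 96.5, 84.9 and 90.2 in LPS-treated GFP libraries. In Nur77 it ranked at 8.04, 3.97 and 4.92 untreated and 56.9, 63.4 and 60.4 after LPS. It rose in both lines, by 57.6 ± 3.33 points (limma adjusted p = 1.8e-06), and was lower in Nur77 than in GFP within each treatment. The Rsad2 promoter member, printed above with its AP-1 letters, was called in 6 GFP and 4 Nur77 libraries. Its percentile was 36.3, 22.0 and 21.9 in untreated GFP lists and 77.8, 75.2 and 83.4 after LPS.

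A wide member (chr12:111453137-111461089) overlapped Tnfaip2, a gene induced by tumour necrosis factor, and ran past an end of the gene. In GFP this member ranked at 62.1, 58.0 and 48.8 untreated and 88.6, 92.3 and 96.0 after LPS. In Nur77 it ranked at 19.0, 22.8 and 22.4 untreated and 81.4, 90.8 and 84.9 after LPS, so the gap between the lines was smaller after LPS, a difference that was not tested. The rise was 50.1 ± 2.62 points (limma adjusted p = 8.6e-07). The other 7 of the 10 rising members with the smallest p lay in or near Prkch, Frmd6, Ppm1a, Bdkrb2, Ahnak2, Plek2 and Ttc7b, with rises of 18.7 to 55.6 points. The members near Ahnak2 and Plek2 were at promoters.

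Of the falling members, the one with the smallest p lay 18.2 kb from Sptlc2, a subunit of the enzyme that starts sphingolipid synthesis (chr12:87406509-87408748). It ranked at 65.2, 62.6 and 66.1 untreated and 26.6, 31.1 and 34.3 after LPS in GFP, and at 27.6, 25.8 and 21.3 untreated and 10.4, 11.6 and 10.9 after LPS in Nur77. It fell in each line, by 24.0 points over both (SE 1.77, limma adjusted p = 7.8e-06). The promoter member of Pik3cg, a leukocyte phosphoinositide kinase (chr12:32207890-32209487), ranked at 56.1 to 74.9 in untreated and 39.7 to 48.5 in LPS libraries, with no overlap (limma adjusted p = 3.4e-04). The other 8 lay in or near Etv1, Lgmn, Ppp1r13b, Btbd6, Vsnl1, Hsp90aa1, Map3k9 and Nubpl, with falls of 15.4 to 34.9 points.

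**Figure D5:**
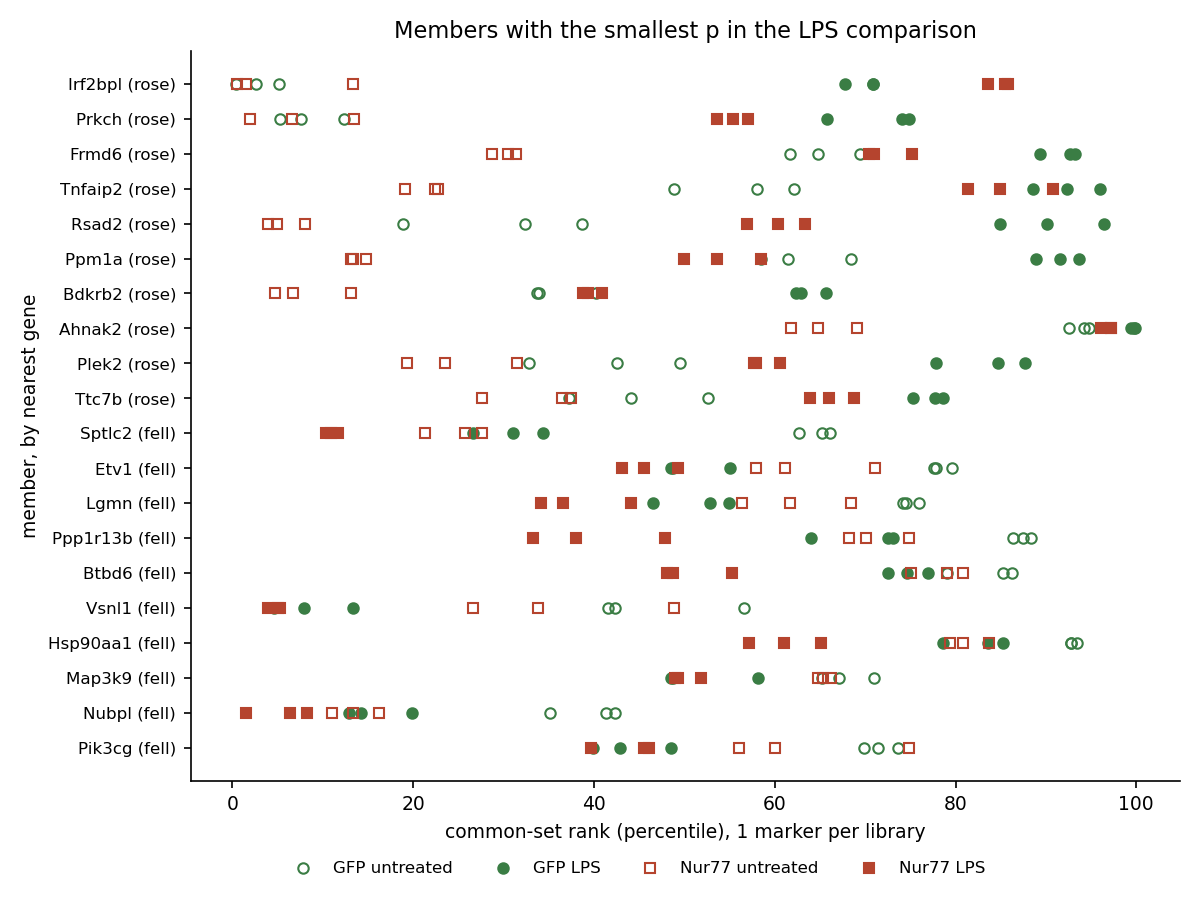
Common-set rank (percentile) in each of the 12 libraries of the 10 members with the smallest p that rose and the 10 that fell after LPS, named by nearest gene. Open markers are untreated and filled ones LPS libraries, circles GFP and squares Nur77; at Irf2bpl the untreated libraries lie at 13.3 or below and the LPS libraries at 67.8 or above.

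In the lists, 3 of 14 tested members near AP-1 genes rose and 1 fell, 8 and 6 of 49 near NF-kB and Toll-like receptor genes, 1 and 0 of 6 near interferon genes, and 3 and 4 of 30 near transcription regulators. Near lysosome and macrophage genes 7 of 49 rose and 9 fell, near housekeeping genes 5 and 3 of 46, and near genes of other cell types 3 and 8 of 18. Of all regions tested 13.3% rose and 13.4% fell. In the lists, in the order given, 21.4%, 16.3%, 16.7%, 10%, 14.3%, 10.9% and 16.7% rose. The shares that fell were 7.14%, 12.2%, 0%, 13.3%, 18.4%, 6.52% and 44.4%. With so few members tested in most lists, nothing particular to a list is read from these counts. The member over Nfkbia rose by 4.62 points (limma adjusted p = 0.0208), and this call was lost with a replicate block (limma adjusted p = 0.0689) and without GFP untreated replicate 3 (0.0514). It ranked at 94.7, 97.5 and 94.3 untreated and 99.7, 99.5 and 99.6 after LPS in GFP, and at 92.4, 94.3 and 92.1 untreated and 98.3, 98.8 and 97.1 after LPS in Nur77.

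LPS brought 7 members into the lists, called in all 6 LPS and no untreated library (0.195%, beside 0.568% of all regions). The other way went 0 members (0.05% of all regions). These counts were 17 and 5 at equal list length and 16 and 3 with the strongest 20000 peaks, and the gains were 17 without Nur77 LPS replicate 2. The 7 lay within Pum2, Nol10, Prorp, Gm40892 and D430019H16Rik, 2.44 kb from Gpatch2l and 19.3 kb from Batf. The member near Batf (chr12:85665893-85667426) ranked at the 59.6, 62.4 and 79.99 percentile of the GFP lists and at 57.6, 42.5 and 46.4 of the Nur77 lists after LPS. In the GFP line alone, 83 members were gained with LPS (2.31%; 1.96% of all regions) and 33 lost (0.918%; 1.02%). In the Nur77 line 33 were gained (0.918%; 1.94%) and 12 lost (0.334%; 0.46%), and the difference between the lines was not tested.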

How the data were processed

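Peaks were measured by ATAC-seq in 12 libraries (4 groups of 3), deposited as 1 narrowPeak list per library on mm10. The submitters' processing notes list cutadapt 2.6 and DiffBind 3.0.15. The name of the aligner or caller is not given in the sources used here. A q of 0.001, a mapping quality of at least 20 and the filtering of duplicates and mitochondrial reads are recorded in the names of the peaks. The authors deposited for each peak a score, a fold ratio over background, and −log10 p and −log10 q values. All folds gave whole peak heights within 0.1 reads at 1 background height per library (0.402 to 1.45, inferred from the values). The read depth of a library is not recorded in its list, so the list length, 36184 to 81467 peaks, stands for it.

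Rows with equal start and end were collapsed, and overlapping or touching peaks of all lists merged. A region was called in a library with a peak there. Ranks used the strongest −log10 q. Promoter members meet the window of 250 bases before to 50 after a RefSeq start, gene bodies the gene span. Members, gene lists and motifs were chosen with earlier results of these data known. The line contrast is described without a test. LPS was tested within lines by exact permutation (2 tests, Benjamini-Hochberg) and by limma 3.58.1 (R 4.3.3) on the ranks of all 26378 common regions, with group means for the 4 groups. The limma code was run on simulated ranks with equal normal noise and a shift at middle ranks only. That run does not cover ranks near either end, where the spread differs. Regions named were the 10 strongest lost in all Nur77 libraries; the 5 strongest, the 10 largest falls and up to 5 rises without overlap of the lines; up to 10 gained or lost with LPS; the 10 smallest limma p in each direction; and, per list gene, the member within 50 kb called in most lists. Promoter members of Ttc9, Dio2, Fbln5, Pfn4 and the others named for their calls were chosen after their values were seen. One region that this rule picks is not reported here. No 2 lists shared over 0.122% of identical peaks. The labels give no batch. Alternatives were equal list length, the strongest 20000 peaks, −log10 q of at least 5, at least 50% of a region covered, at least 3 lists, 10 Mb windows, ranks by fold, normal scores, a replicate block, leaving out each library and, chosen after seeing the data, ranks among regions called in all 6 GFP libraries. Tools were Python 3.11.15, numpy 2.4.6, pandas 2.3.3 and matplotlib 3.10.9.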

Additional observations from a re-analysis of the deposited data

How the results depend on the processing

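Calls are limited by list length, ranks by the common set, and neither gives read depth. The lower share of peaks, of calls and of rank in Nur77 kept its sign under every alternative run. At equal list length, the strongest 20000 peaks, −log10 q of at least 5 and 50% of a region covered (every peak lies wholly in its merged region, so only the region's share was set), in this order where all 4 are given, the values were as follows. Members lost in all Nur77 libraries: 36, 39, 63 and 49 (66 as reported), the reverse 2, 1, 0 and 1. Untreated, lost 145, 116, 298 and 325 (320), gained 12, 5, 1 and 5 (2). After LPS, lost 142, 126, 169 and 185 (208), gained 9, 3, 5 and 3 (3). The line means of the members' median rank differed by -19.0, -22.0, -17.4 and -17.7 points (-16.5). With ranks among regions called in all GFP libraries the difference was -15.3. Members lower in all Nur77 libraries numbered 319, 236, 345 and 138 (355), higher ones 0 in each (1), and 454 and 2 in the GFP set. The sets ranked differed in size, with 891, 508, 997 and 369 members (1054), and 1679 in the GFP set. Lower members were 35.8%, 46.5%, 34.6% and 37.4% of them (33.7%), and 27.0% in the GFP set. Over all regions ranked the shares were 3.56%, 3.26%, 3.55% and 2.83% (3.56%), and 4.21% in the GFP set. The share of peaks differed by -1.10 at equal length and -1.21 at −log10 q of at least 5 (-1.30). With 50% of a region covered, 7 of 7 windows were negative. Members gained with LPS were 17, 16, 7 and 9 (7), and lost ones 5, 3, 1 and 1 (0). limma called 58 higher and 66 lower of 508 members at 20000 peaks (1567 and 1463 of all 13146 regions). With 50% of a region covered it called 41 and 55 of 369 members (1162 and 1062 of all 10277 regions). The LPS difference in median rank was -0.451, -0.710, -0.0723 and -3.12 (0.542; exact permutation p = 0.64, 0.295, 0.895 and 0.005), and -0.0767 and -0.148 without GFP LPS replicate 1 and Nur77 LPS replicate 3. That in share of peaks was 0.0458 at 20000 peaks (exact permutation p = 0.215). It does not use coverage and was unchanged at -0.0985 with 50% of a region covered. There its exact permutation p = 0.04 passed only because the 2 tests are adjusted together. The causes were not tested.

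Leaving out each library in turn gave 66 to 115 members lost (115 without GFP LPS replicate 1) and 0 to 2 gained in all, 319 to 594 untreated (594 without GFP untreated replicate 1) with 2 to 14 gained (14 without Nur77 untreated replicate 2), and 207 to 529 after LPS (529 without GFP LPS replicate 1) with 3 to 16 gained (16 without GFP LPS replicate 3). The share of members called differed by -30.0 to -23.9 points, the share of peaks by -1.32 to -1.27 and the median rank by -16.8 to -15.6. Members lower in all Nur77 libraries numbered 363 to 446 and higher ones 1 to 3, and 16 to 20 windows were negative. With LPS, 7 to 17 members were gained (17 without Nur77 LPS replicate 2) and 0 to 3 lost. Of 1053 to 1228 members tested, limma called 124 to 173 higher and 122 to 160 lower. Of 26418 to 29591 regions tested in all, it called 3156 to 4062 higher and 2932 to 3720 lower. The LPS differences ran from -0.123 to -0.0769 in share of peaks and from -0.148 to 0.755 in median rank.

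Same-numbered untreated and LPS libraries correlated in their deviations by -0.017 to 0.161, and differently numbered ones of the same line by -0.144 to 0.121. With 3 replicates per group these values cannot decide whether the numbers pair the libraries. With a replicate block limma called 127 higher and 129 lower of 1054 members (3322 and 3185 of all 26378 regions). The call at Nfkbia was then lost (limma adjusted p = 0.0689). The exact permutation p with the block was 0.0625 for the share of peaks and 0.5 for the median rank.
The 20 members with the smallest limma p kept their direction and an adjusted p under 0.05 in all 368 values that 20 alternatives gave for them.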
